A study of Mus musculus with 4 samples.

Results

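MAP kinase phosphatases and Sh3bp5 were examined in Langerhans cells, the dendritic cells of the epidermis, that lacked the aryl hydrocarbon receptor (AhR), a ligand-activated transcription factor. The set names 8 genes: Dusp16 and Sh3bp5, which act on the JNK branch of MAP kinase signalling and were chosen by their lower log2 values on the AhR-deficient arrays, and Dusp10, Dusp1, Dusp4, Dusp2, Dusp6 and Dusp14 as the comparison. A probe set, the group of short probes that together report a transcript, was taken where the platform annotation gave it to a listed gene alone. That rule found 9 probe sets of 22626 tested, for 7 of the 8 genes. The annotation gave none to Dusp4, which was not analysed here.

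The AhR-deficient cells came from mice deficient for exon 2 of the Ahr gene, and they were compared with cells from wild-type C57BL/6 mice, with 2 Affymetrix MOE430A arrays for each genotype. In both genotypes the Langerhans cells were from ear epidermis of untreated mice, spent 16 hours in culture and were then sorted, as living cells with MHC class II on their surface, to more than 95% purity. Per the labels, the fraction before sorting held 20 to 35% Langerhans cells. The labels call the samples biological replicates, but give neither the number or age of the mice nor the strain background of the AhR-deficient line, and they differ on whether sheets or a cell suspension were cultured, so p-values measure only the spread between these samples.

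MAP kinases are switched on by phosphate on a threonine and a tyrosine, and dual-specificity phosphatases, the Dusp genes, switch them off by removing both. Some members favour the stress-activated kinases JNK and p38, others ERK, and several are themselves induced by the cascades they end. Sh3bp5 is not a phosphatase. It encodes a protein of the outer mitochondrial membrane that docks JNK, and it is also known as a binding partner of the kinase Btk and as an exchange factor for Rab11. In dendritic cells, MAP kinase signals take part in maturation and in cytokine production.

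The promoters of Dusp16 and Sh3bp5, the pair chosen for lower values, and of Dusp2, the comparison gene with the greatest difference, are shown because AhR binds DNA at a core of GCGTG, searched here on both strands. RefSeq windows on GRCm38.p6 run from 250 bases before to 50 bases after an annotated start site, and capitals mark the core, which reads CACGC where it lies on the opposite strand. They are Dusp16 at chr6:134792579-134792878 (minus strand), an upstream Sh3bp5 start at chr14:31436051-31436350 and a downstream Sh3bp5 start at chr14:31417628-31417927 (both minus strand), and Dusp2 at chr2:127335909-127336208 (plus strand).
Dusp16: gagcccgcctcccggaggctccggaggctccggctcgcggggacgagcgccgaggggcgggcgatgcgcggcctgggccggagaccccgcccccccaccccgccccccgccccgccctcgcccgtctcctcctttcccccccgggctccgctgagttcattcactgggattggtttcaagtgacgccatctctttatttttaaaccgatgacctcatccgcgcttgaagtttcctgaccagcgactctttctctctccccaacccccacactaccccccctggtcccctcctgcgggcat
Sh3bp5, upstream start: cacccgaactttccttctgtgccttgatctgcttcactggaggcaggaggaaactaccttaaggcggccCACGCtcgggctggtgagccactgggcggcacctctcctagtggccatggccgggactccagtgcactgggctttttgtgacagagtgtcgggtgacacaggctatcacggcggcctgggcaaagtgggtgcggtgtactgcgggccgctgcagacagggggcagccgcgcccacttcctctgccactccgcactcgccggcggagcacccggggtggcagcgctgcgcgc
Sh3bp5, downstream start: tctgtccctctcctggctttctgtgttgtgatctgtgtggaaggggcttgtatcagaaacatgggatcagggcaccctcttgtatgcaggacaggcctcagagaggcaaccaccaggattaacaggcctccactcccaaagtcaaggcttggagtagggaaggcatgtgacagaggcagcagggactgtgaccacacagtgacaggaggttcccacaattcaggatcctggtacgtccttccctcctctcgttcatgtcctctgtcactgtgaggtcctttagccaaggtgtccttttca
Dusp2: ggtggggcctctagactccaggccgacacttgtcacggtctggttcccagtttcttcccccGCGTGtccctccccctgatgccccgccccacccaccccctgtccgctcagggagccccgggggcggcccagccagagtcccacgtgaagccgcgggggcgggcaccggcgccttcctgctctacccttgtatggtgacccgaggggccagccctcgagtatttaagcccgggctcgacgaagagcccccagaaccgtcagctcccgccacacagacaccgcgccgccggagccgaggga

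The window of Dusp16 held 0 matches to GCGTG. The upstream window of Sh3bp5 held 1, whose first base lies at position -181 from the start site on the opposite strand, and the downstream window held 0. The window of Dusp2 held 1, at position -189. Of the remaining members, Dusp14 held 2 matches and the windows of Dusp10, Dusp1 and Dusp6 held 0. Among 32851 windows of the same length in the table, 32.4% held the core, so a match is common. The AP-1 site TGANTCA, bound by Jun and Fos proteins, was in 0 member windows against 7.81% of all windows, and the cAMP response element TGACGTCA was in the window of Dusp1 alone among members, at position -143, against 1.79% of all windows. No matches of different motifs overlapped. A match describes letters in a window, not a measured binding site, and no match says only that the letters are not in that window.

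The arrays were alike in scale, with medians of the log2 signal between 5.60 and 5.63. The 2 wild-type arrays correlated at r = 0.9871 (across probe sets, which are not independent). AhR-deficient replicate 2 correlated more highly than that with wild-type replicates 1 (0.9876) and 2 (0.9894), as did AhR-deficient replicate 1 with wild-type replicate 2 (0.9881). AhR-deficient replicate 1 and wild-type replicate 1 gave 0.9795, and the 2 AhR-deficient arrays gave 0.9902. The 3' minus 5' signal of the Actb control probe sets, a sign of RNA length after amplification, was 2.34 and 2.61 in AhR-deficient cells, against 3.16 and 2.65 in wild-type cells, without overlap. For Gapdh the same measure overlapped, at 2.24 and 2.19 in AhR-deficient cells, against 2.60 and 1.97 in wild-type cells. Its part in the differences was not tested. The defining Langerhans cell marker Cd207 gave a log2 signal of 11.2 and 11.7 on the AhR-deficient arrays, against 11.0 and 12.1 on the wild-type ones. The annotation does not place a probe set of Ahr in exon 2, so its log2 signal of 8.55 and 8.60 in AhR-deficient cells, against 7.61 and 8.23 in wild-type ones, does not check the labels. Ahr lies on chromosome 12, which carries none of the 8 members.

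Dusp16 encodes a MAP kinase phosphatase that inactivates JNK and p38 and shuttles between cytoplasm and nucleus. It gave log2 signals of 7.88 and 7.84 in AhR-deficient cells, against 9.58 and 9.86 in wild-type cells. The 2 AhR-deficient arrays were the lower ones without overlap, and the gap between the groups was 1.70. The log2 difference was -1.86, a 3.63-fold lower signal, where the SD between replicates was 0.03 in AhR-deficient cells and 0.20 in wild-type cells (n = 2 arrays each). Set singly against each other, the 4 pairs of an AhR-deficient and a wild-type array differed by -2.02 to -1.70. These values chose the gene, so they are given without a test. The suffix of its sole probe set, 1418401_a_at, marks probes shared by transcripts of the gene, and which transcript contributed was not measured.

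Sh3bp5 was read by 2 probe sets that the annotation ties to the same transcript sequence, and both were lower in AhR-deficient cells, by unequal amounts. Probe set 1421923_at gave 6.20 and 5.83 in AhR-deficient cells, against 8.11 and 8.29 in wild-type cells. That is a log2 difference of -2.18, or a 4.53-fold lower signal, with replicate SDs of 0.26 in AhR-deficient and 0.13 in wild-type cells. Probe set 1421922_at gave 6.01 and 5.78 in AhR-deficient cells, against 6.33 and 6.86 in wild-type cells. Its groups did not overlap either, but the gap between them was 0.32 against 1.91 for the first probe set, and the log2 difference was -0.70. Without wild-type replicate 2 this difference was -0.44. Within an array, the signal of 1421923_at exceeded that of 1421922_at by 0.19 and 0.06 log2 in AhR-deficient cells and by 1.77 and 1.43 in wild-type cells, so the size of the Sh3bp5 difference depends on the probe set read. In such sorted samples, fewer cells with a transcript and less of it per cell cannot be told apart.

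Among all 22626 probe sets, 1421923_at of Sh3bp5 had the 11th lowest difference, Dusp16 the 17th lowest and 1421922_at of Sh3bp5 the 139th lowest. These ranks restate the choice of the pair. In limma, a linear model with a moderated test, 4 probe sets were lower and 0 higher at an adjusted p under 0.05 (0.0177% lower, 0% higher of all probe sets), and 598 (2.64%) were lower and 760 (3.36%) higher at an unadjusted p under 0.05. Non-overlapping groups were seen, in the lower direction, for 16.2% of all probe sets and for all 3 probe sets of the chosen pair, from which nothing is read because that contrast chose them.

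**Figure D1:**
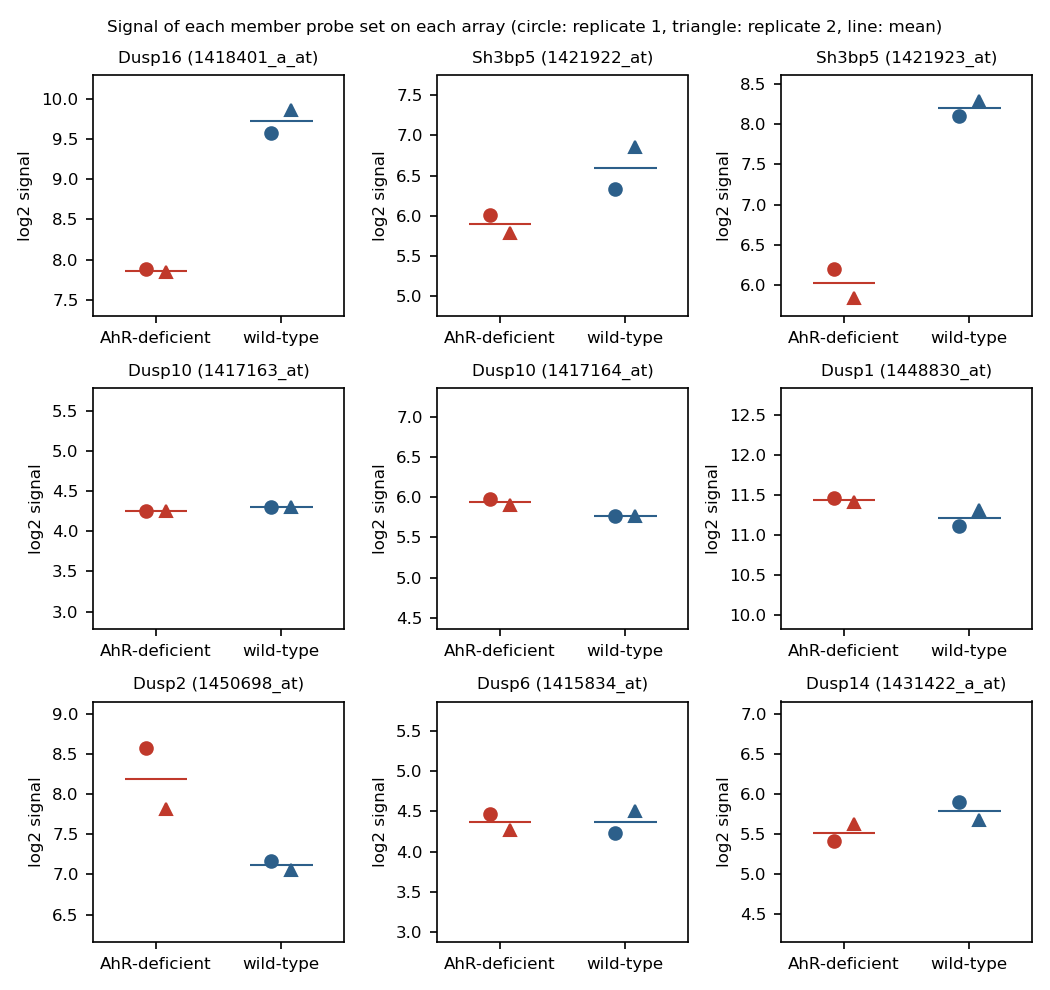
Log2 signal (vertical axes, each spanning 3 log2 units) of the 9 member probe sets on each array, AhR-deficient on the left and wild-type on the right, with replicate 1 as a circle, replicate 2 as a triangle and a line at the mean of 2 arrays. The groups stand farthest apart for Dusp16 (7.88 and 7.84 against 9.58 and 9.86) and for Sh3bp5 probe set 1421923_at, while those of Dusp6 overlap.

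The comparison phosphatases differed by -0.27 to 1.08 on the log2 scale, where Dusp16 differed by -1.86. None of their 6 probe sets passed in limma at an adjusted p under 0.05, the background being 0.0177% of probe sets, and 1 was higher at an unadjusted p under 0.05 (3.36% of all probe sets), that of Dusp2. The difference between Dusp16 and these genes was not tested, since Dusp16 was chosen for it. Their median log2 difference was 0.091, against 0.0068 over all probe sets. Groups did not overlap for 5 of the 6 (3 higher, 2 lower), against 35.2% of all probe sets (19% higher, 16.2% lower), but several of these gaps were small, as the values show.

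Dusp10 is a relative of Dusp16 that also acts on JNK and p38. Its probe set 1417164_at gave 5.98 and 5.91 in AhR-deficient cells, against 5.76 and 5.77 in wild-type cells. The AhR-deficient arrays were the higher ones, by a gap of 0.14, and the difference was 0.18 (SE 0.08, n = 2 each, limma adjusted p = 0.857, 95% interval -0.03 to 0.39). Probe set 1417163_at went the other way by a small amount, with 4.25 and 4.25 in AhR-deficient cells, against 4.31 and 4.31 in wild-type ones, at a difference of -0.06 (SE 0.07, limma adjusted p = 0.944). All 4 values of 1417163_at lay below the lower quartile of their arrays, which ranged from 4.54 to 4.57, where a probe set may report mainly background.

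Dusp1 is a nuclear, stress-induced phosphatase that turns off p38 and JNK after inflammatory stimuli. It gave log2 signals of 11.46 and 11.41 in AhR-deficient cells, against 11.12 and 11.31 in wild-type cells. Both AhR-deficient arrays were the higher ones, by a gap of 0.10, which is no larger than the SD of 0.14 between the wild-type arrays. At 0.22 (SE 0.10), the difference was not called (limma adjusted p = 0.859, 95% interval -0.05 to 0.50), and it was 0.13 without wild-type replicate 1.

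Dusp2 is a nuclear phosphatase induced in activated immune cells. It gave log2 signals of 8.57 and 7.82 in AhR-deficient cells, against 7.17 and 7.06 in wild-type cells. Both AhR-deficient arrays lay above both wild-type arrays, opposite to Dusp16, but they differed from each other by more than the gap of 0.65 between the groups. The log2 difference was 1.08 (SE 0.27), a 2.11-fold higher signal, the 76th highest of all probe sets. It did not pass in limma (adjusted p = 0.703, unadjusted p = 0.0143, 95% interval 0.35 to 1.81). Without AhR-deficient replicate 1 the difference was 0.70, and without AhR-deficient replicate 2 it was 1.46.

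Dusp6, a cytoplasmic phosphatase specific for ERK, gave 4.47 and 4.27 in AhR-deficient cells, against 4.23 and 4.51 in wild-type cells. The groups overlapped and all 4 values lay below the lower quartiles of their arrays. The difference was 0.0023 (SE 0.14, limma adjusted p of 1), with a 95% interval of -0.37 to 0.37. Its sign turned under several settings, with values of -0.0048 after quantile normalisation and -0.0094 after median centring.

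Dusp14 encodes a small phosphatase that lacks the kinase-docking domain of the larger members. It gave 5.41 and 5.62 in AhR-deficient cells, against 5.89 and 5.67 in wild-type cells. The AhR-deficient arrays were lower, by a gap of only 0.05, and their difference, -0.27 (SE 0.13), was not called (limma adjusted p = 0.867, 95% interval -0.61 to 0.08). Without wild-type replicate 1 it was -0.16.

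**Figure D2:**
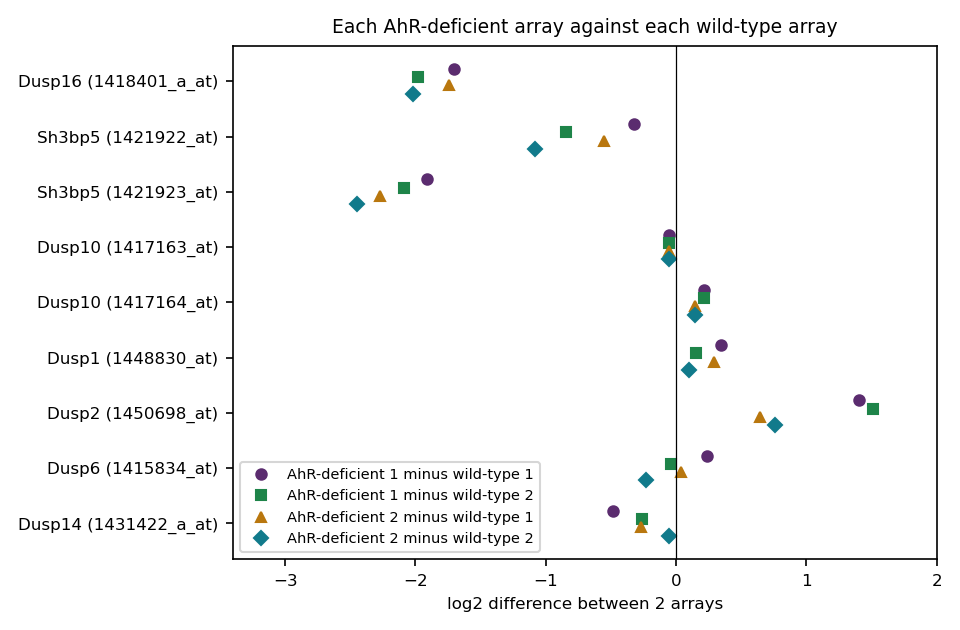
Log2 difference (horizontal axis) of each AhR-deficient array minus each wild-type array for the 9 member probe sets, with a symbol for each of the 4 pairs of arrays. All 4 pairs lie between -2.02 and -1.70 for Dusp16, while for Dusp2 the pairs with AhR-deficient replicate 1 (1.40 and 1.51) stand apart from those with replicate 2 (0.65 and 0.76).

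**Figure D3:**
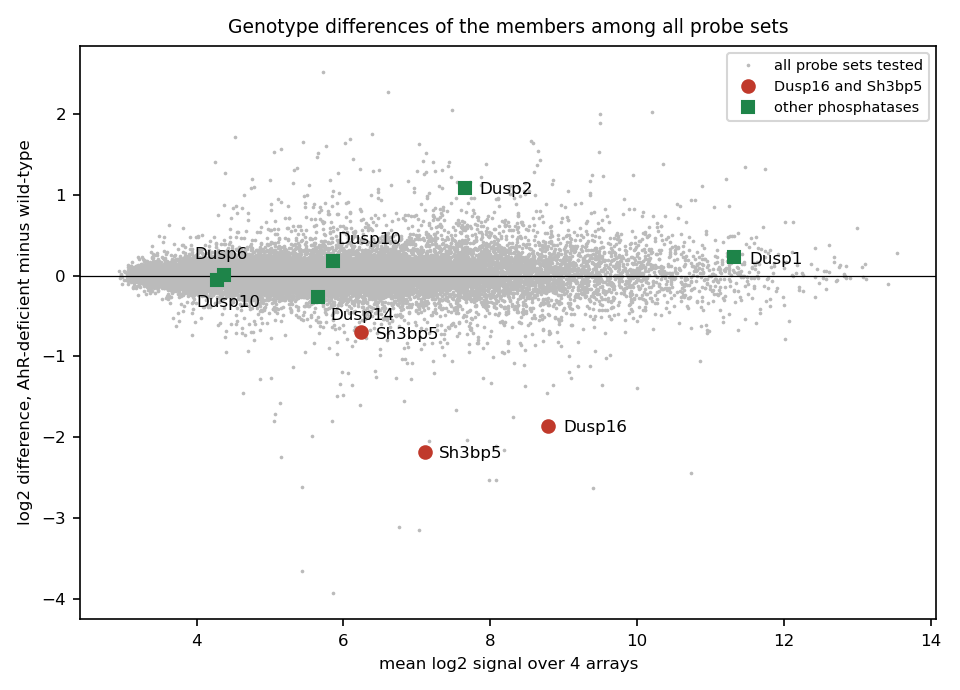
Log2 difference, AhR-deficient minus wild-type (vertical axis), against the mean log2 signal over 4 arrays (horizontal axis) for all 22626 probe sets in grey, with Dusp16 and Sh3bp5 as red circles and the other phosphatases as green squares. Dusp16 (-1.86) and 1 Sh3bp5 probe set (-2.18) lie among the lowest points, Dusp2 (1.08) lies above most of the cloud and the other phosphatases lie within it.

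The kinases, scaffolds and effectors around these phosphatases were read from a list of 68 genes, of which 57 had a probe set. For each gene the probe set with the highest mean was used. In limma 0 of the 57 passed in either direction, against 0.0323% of 12393 genes. At an unadjusted p under 0.05, 0 were lower and 1 higher, against 3.04% and 3.5% of all genes. Over all 105 probe sets of the list, 2 were lower and 1 higher at that level, the lower ones being further probe sets of Atf2 (-0.39) and Mapk14 (-0.26). Groups did not overlap for 9 genes in the lower and 10 in the higher direction, against 16.6% and 18.8% of all genes. The median log2 difference of the list was -0.00016, against 0.0065 for all genes. Apart from Fos, the differences of the other 56 genes lay between -0.23 and 0.25 for these probe sets. Over all 105 probe sets the lowest was -0.59, for a dimmer probe set of Spry2. Of 31 listed genes with several probe sets, 21 had differences of both signs.

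In the JNK branch, the one acted on by Dusp16, Dusp10 and Sh3bp5, 14 of 16 genes were measured, with a median difference of 0.01. The smallest p-values belonged to Jun, the transcription factor that JNK phosphorylates, and Map3k12, an upstream kinase. Jun gave 8.32 and 8.36 in AhR-deficient cells, against 8.48 and 8.66 in wild-type ones, which is a difference of -0.23 (SE 0.10, limma adjusted p = 0.857), and its other probe set differed by -0.20. Map3k12 differed by -0.19 (SE 0.10, limma adjusted p = 0.873), and by -0.10 without AhR-deficient replicate 1. Its other probe sets differed by -0.05 and 0.05, with overlapping groups. Chosen after their values were seen, the JNK genes themselves differed by 0.14 (Mapk8), 0.04 (Mapk9) and 0.21 (Mapk10), and the JNK-activating kinase gene Map2k4 by 0.10, none of which passed. Further probe sets differed by 0.04 and 0.22 for Mapk8, by 0.0022 and 0.01 for Mapk9 and by 0.08 for Map2k4. The other probe set of Mapk10, below the lower quartile on all 4 arrays, differed by -0.07.

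In the p38 branch 11 of 12 genes were measured, with a median difference of -0.0085. Mapk13, a p38 kinase, differed by -0.20 (SE 0.08, limma adjusted p = 0.857). Its signals of 4.44 and 4.40 in AhR-deficient cells lay below the lower quartile of their arrays. Mapkapk5, a kinase downstream of p38, differed by 0.25 (SE 0.16, limma adjusted p = 0.892), with overlapping groups. This Mapkapk5 difference ranged from 0.09 without AhR-deficient replicate 1 to 0.40 without AhR-deficient replicate 2. In the ERK branch 10 of 16 genes were measured, with a median of -0.03. Fos, an immediate early gene that follows ERK activity and the partner of Jun in AP-1, gave 11.3 and 11.1 in AhR-deficient cells, against 8.36 and 10.0 in wild-type cells. Both AhR-deficient arrays were higher, but the wild-type arrays differed from each other by more than the gap between the groups, which was 1.13. At 2.02 (SE 0.57), it was not called (limma adjusted p = 0.724, unadjusted p = 0.0216), and it ranged from 1.20 without wild-type replicate 1 to 2.85 without wild-type replicate 2. Map2k2, which activates ERK, differed by -0.19 (SE 0.11, limma adjusted p = 0.879), while its other probe set differed by 0.04, and without wild-type replicate 1 the first value was -0.084.

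Of the remaining phosphatases 13 of 15 were measured, with a median of 0.0010. Those with the smallest p-values were Dusp7, an ERK phosphatase related to Dusp6, at 0.14 (SE 0.08, limma adjusted p = 0.884), and Dusp3, at -0.20 (SE 0.12, limma adjusted p = 0.889). The other probe sets of Dusp7 differed by -0.050 and -0.080, and that of Dusp3 by 0.12. For Dusp3, leaving out AhR-deficient replicate 2 gave -0.087, and leaving out AhR-deficient replicate 1 gave -0.32. All 5 Sprouty and Spred genes, feedback inhibitors of ERK signalling, were measured, with a median of -0.04 and the smallest p-values for Spred2 (-0.12, SE 0.07) and Spry4 (0.09, SE 0.08), whose other probe sets had the opposite sign (0.075 and -0.010). The dimmer probe set of Spry2 gave 4.65 and 4.55 in AhR-deficient cells, against 5.49 and 4.88 in wild-type ones, and thus differed by -0.59 (limma adjusted p = 0.846), while its brighter one differed by -0.05 with overlap. Among the relatives and partners of Sh3bp5, Btk gave 7.32 and 7.26 in AhR-deficient cells, against 7.04 and 7.12 in wild-type ones, which is a difference of 0.21 (SE 0.08, limma adjusted p = 0.837, unadjusted p = 0.0531). Sh3bp5l, the paralogue of Sh3bp5, differed by 0.04 (SE 0.08, limma adjusted p = 0.975) with overlapping groups, where the probe sets of Sh3bp5 differed by -2.18 and -0.70.

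**Figure D4:**
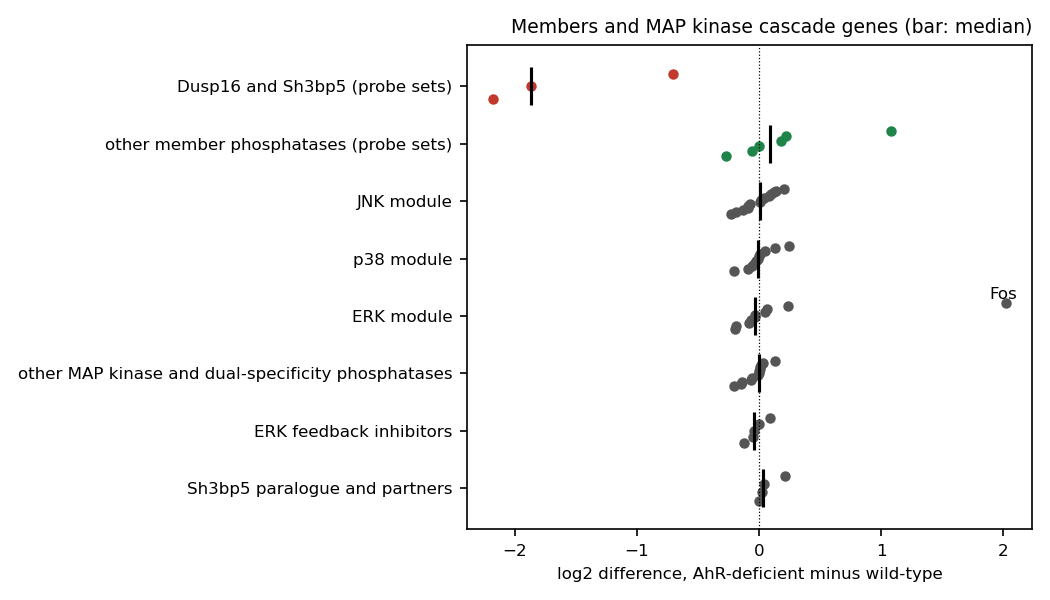
Log2 differences, AhR-deficient minus wild-type (horizontal axis), of the member probe sets (upper 2 rows) and of 57 further genes of the MAP kinase cascades by group, a point for each probe set or gene and a bar at the median. Each cascade gene is drawn by its brightest probe set on average, and these lie between -0.23 and 0.25 except Fos at 2.02. All Dusp16 and Sh3bp5 probe sets are drawn, between -2.18 and -0.70, and the lowest of the cascade probe sets left out of the plot was -0.59.

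The genes whose pattern over the 4 arrays was most like that of the pair were ranked by the root mean square distance between log2 values centred on each probe set's mean, over 12392 genes. Sh3bp5 ranked 2nd for Dusp16, and Dusp16 ranked 2nd for Sh3bp5, at a distance of 0.20. This mutual likeness follows from the choice of the pair by the same 4 values and is no finding, and it holds for Sh3bp5 probe set 1421923_at, the one with the higher mean. Nearest to Dusp16 was Arrb1, a beta-arrestin (distance 0.17, difference -1.80), and after Sh3bp5 came Pgf, a growth factor of the VEGF family (0.22, difference -1.45), Gpc1, a cell-surface proteoglycan (0.24, difference -2.11), and Depdc7 (0.26, difference -1.66). Nearest to Sh3bp5 was Ier3, an immediate early gene (0.16, difference -2.43), and after Dusp16 came Arrb1 (0.23), Gpd2, the mitochondrial glycerol-3-phosphate dehydrogenase (0.25, difference -2.62), and Nr4a2, an orphan nuclear receptor (0.26, difference -2.62). Because the measure keeps the size of the difference, the neighbours are genes with a similarly lower signal in AhR-deficient cells, and 4 arrays give no finer likeness.

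**Figure D5:**
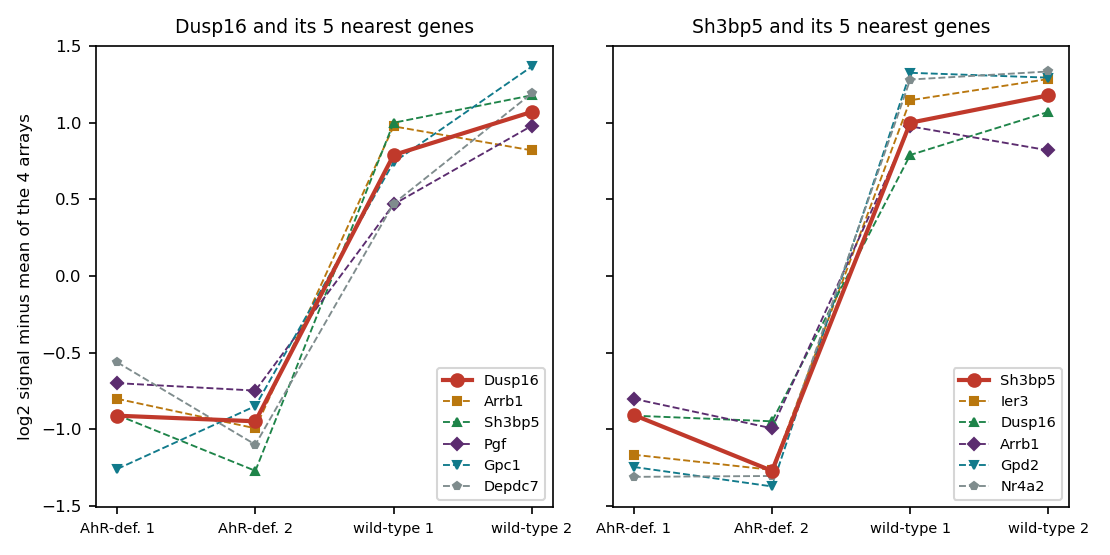
Log2 signal minus the mean of the 4 arrays (vertical axis) for Dusp16 (left) and Sh3bp5 probe set 1421923_at (right) in red with their 5 nearest genes as dashed lines, over the 2 AhR-deficient and 2 wild-type arrays, where lines only join the points of a gene. All genes drawn lie below 0 on both AhR-deficient arrays and above 0 on both wild-type arrays.

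The 6 Langerhans and dendritic cell markers summed to a linear signal of 9540 and 8916 in AhR-deficient cells, against 6468 and 9723 in wild-type cells, so these sums overlapped. Of the 6, 3 were higher without overlap (Cd74 by 0.93, H2-Ab1 by 1.24 and Itgax by 0.14), against 18.8% of all genes, and 0 lower. Markers of other cells that the sort could hold differed beside the member values, though none was called in limma at an adjusted p under 0.05. The summed linear signal of 7 of 11 listed T cell markers was 297 and 318 in AhR-deficient cells, against 386 and 351 in wild-type cells, the same direction as Dusp16 and Sh3bp5. Of the 7, 3 were lower without overlap, which were Cd3g, Cd3d and Cd2, against 16.6% of all genes. On both AhR-deficient arrays these genes lay below the lower quartile, and the other 4 markers overlapped, with differences between -0.10 and 0.02. The sum of 9 of 10 listed keratinocyte markers was 514 and 331 in AhR-deficient cells, against 276 and 310 in wild-type cells, with 5 higher without overlap, against 18.8% of all genes. That of all 7 macrophage and monocyte markers was 1132 and 757 in AhR-deficient cells, against 529 and 686 in wild-type cells. Without overlap, 4 were higher (Lyz2, Cd14, C1qa and C1qb) and 1 lower (Adgre1, by -0.89), against 18.8% and 16.6% of all genes. AhR-deficient replicate 1 had the highest keratinocyte and macrophage sums and the higher Dusp2 signal. The sum of 6 of 7 listed melanocyte markers was 406 and 389 in AhR-deficient cells, against 405 and 440 in wild-type cells, and that of all 5 mast cell markers 203 and 199 in AhR-deficient cells, against 195 and 193 in wild-type cells. Of these melanocyte markers 1 was lower without overlap (Kit, by -0.64), against 16.6% of all genes. Of the mast cell markers 3 were higher without overlap, against 18.8% of all genes. Below the lower quartile on all 4 arrays were Krt15 and Sfn of the keratinocyte list and Fcgr1 of the macrophage list. Whether these marker signals came from other cells or from the Langerhans cells was not measured. The part of other cells in the member values was not tested.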

How the data were processed

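The authors deposited log2 expression values per probe set, made with affy and RMA per the submitters' processing notes. RMA removes background, gives all arrays the same distribution and reduces the probes of a set to a single value, and it tends to understate differences of dim probe sets. Tool versions, probe sequences and a genome build are not given in these sources. The 64 Affymetrix control rows of 22690 were removed. A single symbol was annotated for 20380 probe sets, more than 1 for 691 and none for 1555, and 20351 matched RefSeq genes of GRCm38.p6 with 0 symbols changed.

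The genotype comparison used limma 3.58.1 under R 4.3.3 (lmFit, eBayes, two-sided, residual degrees of freedom 2, prior 2.27). P-values were adjusted by Benjamini-Hochberg over 22626 probe sets and called at 0.05. Each difference is AhR-deficient minus wild-type on the log2 scale, and the median SE was 0.10, with 2 arrays per genotype limiting precision. Intervals are limma's, not adjusted for multiple tests. The fit was tested on 20 simulated sets of this comparison with 22626 probe sets, 200 of them changed. There it recovered 44.2%, 77.8% and 88.4% of log2 changes of 1, 2 and 3, with 3.12% of calls false. The simulated noise was normal and independent between probe sets, with SDs shuffled among them, a setting that the measured arrays need not share. Whether the 4 measured arrays reach this recovery was not tested. These shares therefore do not say how often a change of the size seen for Dusp2 or Fos would be called.

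The members and lists were chosen with earlier results of these data known. Named were all member probe sets, from each pathway group up to 4 genes past the threshold or else the 2 with the smallest p, and the 5 genes nearest to Dusp16 and to Sh3bp5. Alternatives were a replicate block, a trend or robust eBayes, a filter on dim probe sets, repeated quantile normalisation, centring on medians, an offset of 16 on the linear scale, all probe sets of a gene, and leaving out each array.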

Additional observations from a re-analysis of the deposited data

How the results depend on the processing

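In every setting run, 0 comparison phosphatase probe sets and 0 genes of the MAP kinase list were called. The count of lower probe sets, 4 as reported, was 0 with a replicate block, 7 with a trend, 2 with dim probe sets left out, 0 with the offset of 16 and 0 with each of the 4 arrays left out in turn, and that of higher ones, 0 as reported, was 1 with a trend. The replicate numbers do not pair the samples in the labels. Deviations of same-numbered arrays correlated at -0.31, and a crossed replicate block, chosen after seeing the data, called 0 lower probe sets. The median difference of the comparison phosphatases, 0.091 as reported, was 0.20 with dim probe sets left out, which keeps 4 of the 6, and ranged from 0.034 to 0.16 when an array was left out. That of the MAP kinase list was -0.030 after quantile normalisation again, against -0.00016 as reported, and ranged from -0.0068 to 0.024 when an array was left out. With each array left out in turn, Dusp16 ranged from -2.00 to -1.72. Sh3bp5 ranged from -2.36 to -2.00 for probe set 1421923_at and from -0.96 to -0.44 for 1421922_at. With the offset, 1421923_at was -1.94. These arrays chose the pair and its groups did not overlap, so no left-out array could turn a sign. Nothing is read from these ranges. Dusp6 turned to -0.0048 after quantile normalisation and -0.0094 after median centring, and ranged from -0.14 to 0.14 when an array was left out. Sh3bp5l ranged from -0.0060 to 0.082. Of 227 recomputed values of single probe sets, 221 kept their direction and side of the threshold or, for the untested pair, moved by less than the replicate SD. This share does not measure stability. A replicate block, a trend or robust eBayes and the dim filter leave each difference as it was, so no direction could turn there. Where 0 probe sets were called at all, no value could cross the threshold. The causes of the changes between settings were not tested, and a group left with 1 array was assumed to vary like the other. Signals below the lower quartile of an array, as for Dusp6, limit what can be read.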
